A study of Mus musculus with 12 samples.

Results

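Matrix metalloproteinases (MMP), the ADAMTS metalloproteinases, the ADAMTS-like proteins (ADAMTSL) and the tissue inhibitors of metalloproteinases (TIMP) were examined as a single family set in cultured mouse osteocytes. The set was drawn by name. It held every protein-coding gene of the mm9-era annotation whose symbol is Mmp, Adamts, Adamtsl or Timp followed by a digit, and whose Ensembl ID was present in all 12 count tables. This gave 51 of 37583 gene IDs, of which 23 were Mmp, 19 Adamts, 5 Adamtsl and 4 Timp genes. The RNA-seq libraries came from Ocy454, an osteocyte-like line of mouse long bone that carries a temperature-sensitive T antigen and, per the study's methods, was used as a subclone grown from a single cell. There were 4 groups of 3 libraries each: control cells kept static, control cells exposed for 3 h to fluid flow shear stress (FFSS), and the same pair of conditions for cells that the labels give as lacking HDAC4 and HDAC5 (double knockout, DKO). FFSS was produced on an orbital mixing platform. The comparisons address how matrix protease transcripts respond to flow and whether they depend on the class IIa histone deacetylases HDAC4 and HDAC5. The labels do not distinguish separate edited lines among the DKO libraries, so the deletion and the line cannot be told apart. The labels do not say that the 3 libraries of a group came from separate cultures, and the p-values therefore measure the spread between these libraries, which may be technical.

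MMPs are zinc endopeptidases that cut collagens and other matrix proteins. Most are secreted as inactive proenzymes, while the membrane-type members are anchored at the cell surface, where MMP14 cuts collagen and activates pro-MMP2. ADAMTS enzymes trim procollagens or cut proteoglycans such as aggrecan and versican, the ADAMTSL proteins resemble them without a protease domain, and TIMPs bind and block the active enzymes. Osteocytes use MMP2, MMP13 and MMP14 to remodel the mineralized matrix around their lacunae and processes.

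The libraries held 17585225 to 19174118 reads assigned to genes, and the 51 genes took 0.304% to 0.394% of them. Levels are given as CPM, the reads of a gene scaled to a common library total after TMM normalization. On this scale 3 reads correspond to 0.146 to 0.178 CPM, depending on the library. Hdac5 had 2473, 2706 and 2421 reads in control static libraries against 1503, 1461 and 1634 in DKO static libraries, and its 1687, 1553 and 1660 reads in DKO cells under FFSS overlapped the 1755, 1457 and 1664 in control cells under FFSS. Hdac4 has 2 Ensembl IDs, both lower in DKO cells without being lost (log2 fold changes of -0.39 and -0.85 in static culture). Read counts over a whole gene do not show whether an edited allele still makes protein. The osteocyte markers, 6 genes including Sost, Dmp1 and Mepe, summed to 78.1 to 117 CPM in control static libraries and to 3602 to 3689 CPM in DKO static libraries, and Fgf23 had at most 1 read in any library. Sost was low and uneven in control cells, with 28, 41 and 236 reads in static and 221, 2 and 46 in FFSS libraries. These groups overlapped. In DKO static libraries Sost had 38134, 37343 and 36753 reads. Of the 5 osteocyte markers tested 4 were called higher (all genes, 7.98%), while Pdpn was called lower (all genes, 7.3%). Pdpn had 536, 562 and 524 reads in control static against 96, 92 and 90 in DKO static libraries (log2 fold change -2.47 ± 0.11, SE). Chondrocyte markers, 8 genes including Col2a1 and Col10a1, summed to 94.6 to 122 CPM in control static and to 2408 to 3005 CPM in DKO static libraries. Col2a1 and Col10a1, at means of 1819 and 602 CPM, made up most of the DKO static sum. Matn1 was at 0 in every control library, and 4 of the 7 chondrocyte markers tested were called higher (all genes, 7.98%). Others did not rise. Acan had 126, 82 and 132 reads in control static against 81, 71 and 118 in DKO static libraries. Matn3 had 20, 20 and 22 against 22, 18 and 20. The osteoblast markers summed to 19623 to 23660 CPM in control static and 58265 to 65682 CPM in DKO static libraries. There 2 of the 6 tested, Col1a1 and Bglap, were called higher (all genes, 7.98%) and Runx2, Sp7, Alpl and Ibsp did not pass. The part that these differences in cell state play in the protease results was not tested. In bulk RNA, fewer cells of a type and less RNA per cell cannot be told apart. Control FFSS replicate 1 stood apart from its 2 fellow libraries, with a chi-square per degree of freedom of 63.8 and 58.0 against them, whereas the other 10 pairs of replicates gave 2.02 to 6.45. For several genes, calls and values that rest on it are therefore given both ways. For others, such as Timp3, Adamts1, Adamts5 and Adamtsl4 between genotypes under FFSS, only the main value is given.

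Of the 51 genes, 33 were expressed, meaning that all 3 libraries of at least 1 group reached 1 CPM. Comparing levels between genes per kilobase of exon (RPKM), 4 genes carried most of the signal in control static cells. Timp2 stood at 245 RPKM, Timp1 at 226, Mmp14 at 180 and Mmp2 at 102, and together they made up 80.6% of the summed RPKM of the set. Timp3 followed at 29.6 RPKM and the collagenase Mmp13 at 19.1 RPKM. The same 4 leading genes headed the list in control FFSS and DKO static cells, while in DKO FFSS cells Mmp13, at 117 RPKM, stood above Mmp2 at 102. No other MMP, ADAMTS or ADAMTSL gene passed 30 RPKM in any group.

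**Figure D1:**
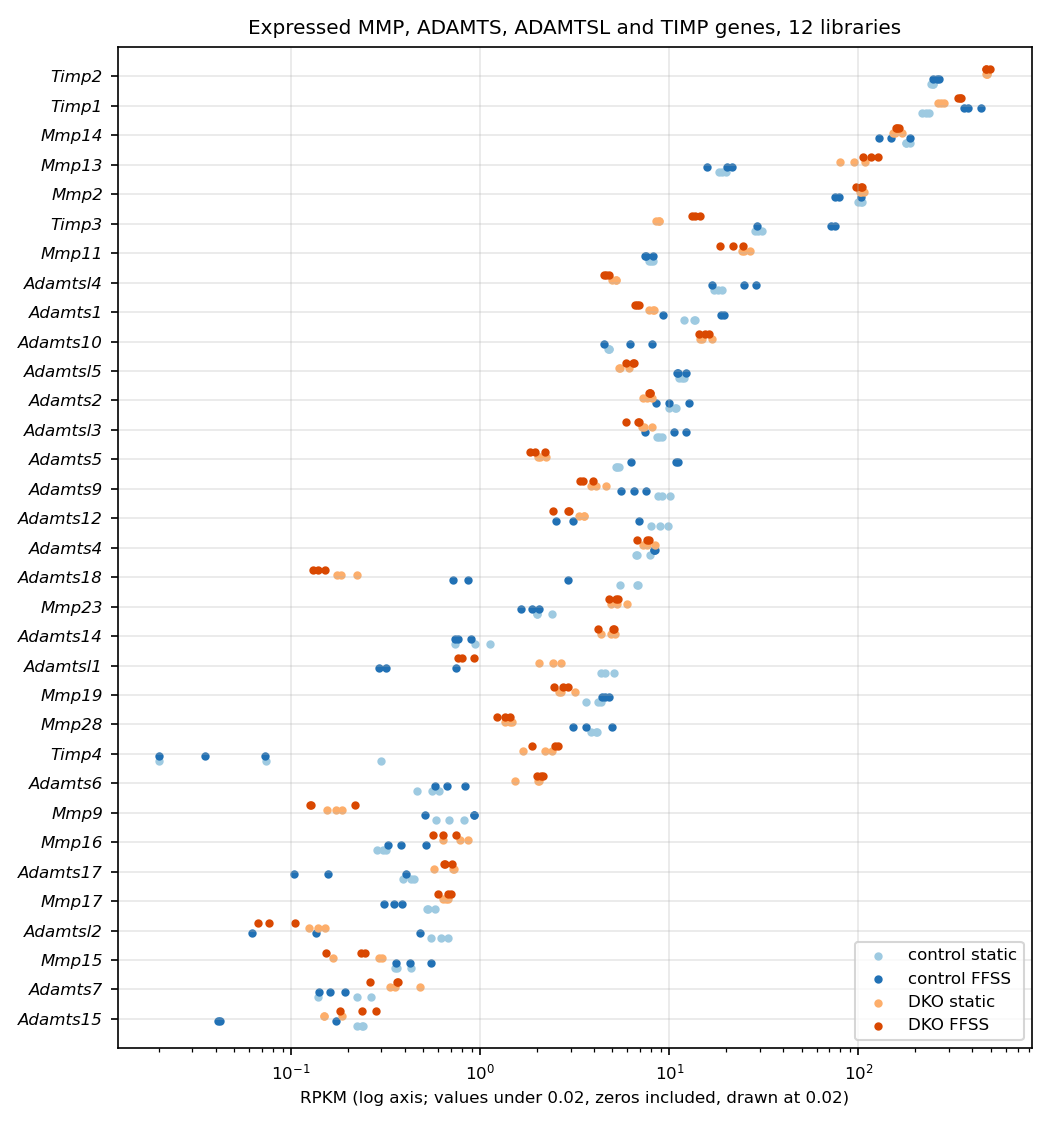
RPKM on a log axis for the 33 expressed genes, ordered by their highest group mean, with 1 point per library and 1 colour per group. Timp2, Timp1 and Mmp14 lie at the top in every group, Mmp13 moves from below Timp3 in control cells to about the level of Mmp2 in DKO cells, and Adamts18 and Adamtsl1 spread over more than a decade.

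The other 18 genes were not expressed by this rule. No library had more than 3 reads of 10 of them, namely Mmp1a, Mmp1b, Mmp7, Mmp12, Mmp21, Mmp25, Mmp27, Adamts3, Adamts8 and Adamts19. Among these, the matrilysin Mmp7, the procollagen N-proteinase Adamts3 and Adamts19 had 0 reads in all 12 libraries. A count of 0 allows up to 3 reads, so levels below 0.146 to 0.178 CPM could not be seen. A further 8 genes, Mmp3, Mmp8, Mmp10, Mmp20, Mmp24, Adamts13, Adamts16 and Adamts20, were detected at low levels. Mmp24 shares 637 exon bases with BC029722 on the other strand, which had 4711 assigned reads over all libraries against 17 of Mmp24. What part this overlap plays in the low count was not tested. By this rule the expressed collagenase was Mmp13 alone, the expressed stromelysin Mmp11, and the expressed membrane-type enzymes were Mmp14, Mmp15, Mmp16 and Mmp17. The stromelysin Mmp3 reached 1 CPM in 2 of 3 control static libraries.

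Of the MMP genes, 10 lie side by side on chromosome 9, and the genotype differences within this cluster ran in opposite directions. It spans 427 kb (mm9, chr9:7272514-7699585) in the order Mmp13, Mmp12, Mmp1b, Mmp3, Mmp1a, Mmp10, Mmp8, Mmp27, Mmp20 and Mmp7. In the RefSeq promoter table (GRCm38.p6, 250 bases before to 50 after each start), the letters TGANTCA were present in a promoter of 8 of the 10 cluster genes. This pattern takes any middle base and is a loose form of the palindromic core bound by AP-1 factors. Its letters were present in 7.81% of all 32851 promoters and in 0 of the 26 other genes of the set that had an entry. That share counts promoters, while the other figures count genes. The Mmp20 match was TGAATCA, and the matches of the other genes were TGAGTCA or TGACTCA. The 2 cluster genes without a match were Mmp8 and Mmp27. The 120 bases before the start are shown for 6 cluster genes, 5' to 3' on the plus strand, to set genes that were higher in DKO static cells (Mmp13, Mmp20, Mmp8) beside genes that were lower (Mmp3, Mmp10) and 1 that was not detected above 3 reads (Mmp1a). Capitals mark the AP-1 letters, which Mmp8 lacks. The positions are chr9:7272394-7272513 for Mmp13, chr9:7628111-7628230 for Mmp20, chr9:7558309-7558428 for Mmp8, chr9:7445702-7445821 for Mmp3, chr9:7502222-7502341 for Mmp10 and chr9:7464021-7464140 for Mmp1a.
Mmp13: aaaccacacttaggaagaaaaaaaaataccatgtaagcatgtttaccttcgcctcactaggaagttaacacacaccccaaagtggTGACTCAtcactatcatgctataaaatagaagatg
Mmp20: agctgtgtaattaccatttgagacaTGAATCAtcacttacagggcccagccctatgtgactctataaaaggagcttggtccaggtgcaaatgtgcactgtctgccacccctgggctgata
Mmp8: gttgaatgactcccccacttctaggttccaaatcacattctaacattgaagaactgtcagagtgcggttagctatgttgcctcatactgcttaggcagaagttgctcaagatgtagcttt
Mmp3: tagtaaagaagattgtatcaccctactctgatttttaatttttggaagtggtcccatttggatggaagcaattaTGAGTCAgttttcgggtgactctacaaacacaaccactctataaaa
Mmp10: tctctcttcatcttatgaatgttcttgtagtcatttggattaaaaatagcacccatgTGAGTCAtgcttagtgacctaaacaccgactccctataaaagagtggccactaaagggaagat
Mmp1a: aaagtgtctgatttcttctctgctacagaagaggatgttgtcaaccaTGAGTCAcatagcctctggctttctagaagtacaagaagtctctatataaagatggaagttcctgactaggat

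The AP-1 letters began 35 bases before the start in Mmp13, 46 in Mmp3, 63 in Mmp10, 73 in Mmp1a and 95 in Mmp20. Other letters searched on both strands were TATAAA (12 of 36 matched genes, 13.6% of all promoters), TGTGGT of RUNX factors (6 genes, 16.8%) and ACGTG of hypoxia-inducible factors (8 genes, 19.6%). The MEF2 motif, named here because class IIa HDACs bind MEF2 factors, was found in 1 gene, Mmp10, and in 3.19% of all promoters. The CArG and cyclic AMP response motifs were found in 0 of the 36. A match is a description of these letters in this window and not of binding.

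Mmp13, the main collagenase of mouse bone, had 925, 1027 and 969 reads in control static libraries and 4621, 5247 and 3833 in DKO static libraries. Every DKO library lay above every control library. On the CPM scale the means were 51.1 ± 2.30 and 252 ± 37.6 (SD, n = 3), a log2 fold change of 2.30 ± 0.13 (SE, adjusted p = 1.7e-08). Under FFSS it was at 54.2, 42.5 and 57.4 CPM in control and 311, 340 and 284 CPM in DKO cells, again without overlap (2.60 ± 0.13, adjusted p = 6.41e-09). The stromelysin Mmp3 went the other way, with 23, 11 and 28 reads in control static libraries and 0 in all 3 DKO static libraries. Against a floor of 3 reads per library this was at least 6.57-fold lower in DKO cells. Under FFSS Mmp3 had 25, 16 and 13 reads in control and 0, 0 and 1 in DKO cells. The stromelysin Mmp10 had 4, 8 and 5 reads in control static libraries against 0, 0 and 1 in DKO static libraries. Mmp20, the enamel protease, had 0, 1 and 0 reads in control static libraries against 13, 12 and 15 in DKO static libraries. The neutrophil collagenase Mmp8 had 1, 0 and 0 against 6, 5 and 9 in static culture, and 2, 0 and 1 against 2, 3 and 6 under FFSS. Mmp3, Mmp10, Mmp20 and Mmp8 had 0 reads in several libraries and were therefore removed by the filter of the study before testing. In an edgeR fit without that filter the static differences had adjusted p = 2.1e-07 for Mmp3, 0.00501 for Mmp10, 1.11e-05 for Mmp20 and 0.0013 for Mmp8. Under FFSS they had adjusted p = 3.6e-06, 0.00239, 0.000405 and 0.0987 in the same order, so that Mmp8 did not pass there. Mmp12, Mmp1b, Mmp1a, Mmp27 and Mmp7 had at most 3 reads in any library.

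**Figure D2:**
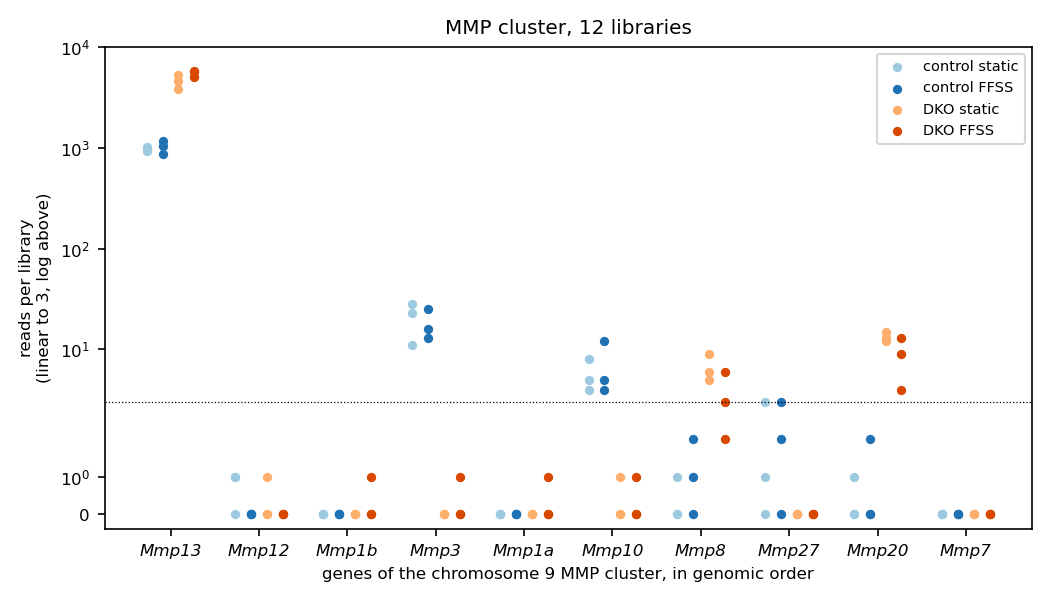
Reads per library for the 10 genes of the chromosome 9 cluster in genomic order, on an axis that is linear up to 3 reads (dotted line) and logarithmic above, with 1 point per library coloured by group. Mmp13, Mmp8 and Mmp20 are higher in DKO static than in control static libraries, Mmp3 and Mmp10 are lower, and the other 5 genes stay at or below 3 reads.

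Over the whole set, the edgeR quasi-likelihood test (all 12 libraries, Benjamini-Hochberg over 14904 genes) could be applied to 33 genes, and a gene was called where its adjusted p was under 0.05 and its level changed by over 2-fold. These are not the same 33 as the expressed genes, since Timp4 was expressed but filtered out and the low gene Adamts16 was tested. The zero-count filter removed genes with reads mainly in 1 genotype, such as Timp4, Mmp3 and Mmp20, so the shares below describe the tested genes alone. In static culture 17 of the 33 (51.5%) were called between DKO and control cells, against 15.3% of all genes tested. Of these, 7 were higher (all genes, 7.98%) and 10 were lower (all genes, 7.3%) in DKO cells. The adjusted p alone was passed by 24 (72.7%), against 54.2% of all genes. The median absolute log2 fold change was 1.04 over the 33 and 0.40 over all genes. Under FFSS 18 of the 33 (54.5%) were called, against 17.2% of all genes, with 9 higher (all genes, 8.25%) and 9 lower (all genes, 8.96%). The adjusted p alone was passed by 29 (87.9%), against 56.6%. Control and DKO libraries did not overlap in 30 of the 33 genes in static culture and in 29 under FFSS. The share of all genes without overlap was not counted, so separate groups named below are descriptions of single genes. The static and FFSS comparisons share no library. They shared 12 called genes, which made up 12 of 17 and 12 of 18 of the 2 lists, and all 12 had the same sign in both. The matching overlap over all genes was not counted, so whether this is particular to the set was not tested.

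**Figure D3:**
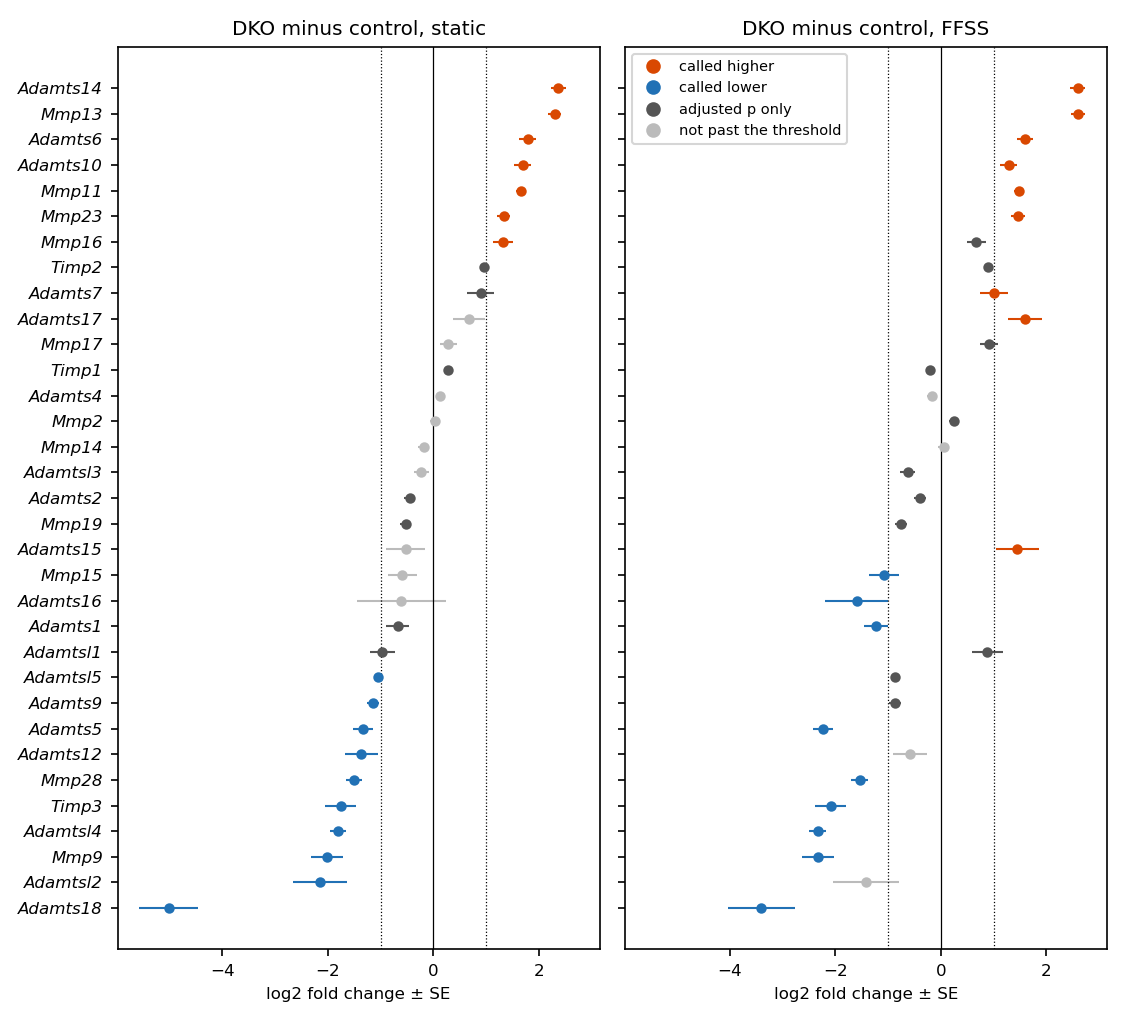
Log2 fold change (DKO minus control) with its SE for the 33 tested genes in static culture and under FFSS, on the same scale, ordered by the static value. Dotted lines mark the 2-fold limit and colours mark the calls. Adamts14 and Mmp13 lie highest and Adamts18 lowest in both panels. Adamts15, Adamtsl1, Timp1, Adamts4 and Mmp14 change sign between the panels.

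Among the MMPs outside the cluster, the 2 most abundant enzymes differed little. Mmp14, the membrane-type collagenase, was at 461, 484 and 462 CPM in control static and 404, 440 and 394 CPM in DKO static libraries. The groups did not overlap, but the test did not pass (log2 fold change -0.18, 95% interval -0.40 to 0.03, adjusted p = 0.145). Without control FFSS replicate 1, which enters the shared estimate of the spread, the value was again -0.18 with adjusted p = 0.00172. Mmp2, the gelatinase that MMP14 activates, was at 314, 302 and 317 CPM against 326, 310 and 312 CPM, with overlapping groups and a 95% interval of -0.17 to 0.22. Under FFSS Mmp2 differed by 0.24 ± 0.09 (adjusted p = 0.0338) and Mmp14 by 0.06 ± 0.10, and without control FFSS replicate 1 by 0.40 ± 0.05 and 0.22 ± 0.06, both past the adjusted p alone. The other gelatinase, Mmp9, known from osteoclasts and hypertrophic cartilage, was low, at 2.43, 2.92 and 2.05 CPM in control static and 0.660, 0.549 and 0.611 CPM in DKO static libraries. It was called lower in DKO cells in static culture (-2.01 ± 0.31, adjusted p = 6.9e-05) and under FFSS (-2.33 ± 0.31, adjusted p = 1.9e-05). The pan-leukocyte marker Ptprc had at most 3 reads in any library, and Cd68, which macrophages share with other cells, had 467, 542 and 448 reads in control static libraries against 40, 47 and 39 in DKO static libraries. The macrophage marker Csf1r went the other way, with 8, 5 and 5 against 11, 13 and 15 reads (1.17 ± 0.37, adjusted p = 0.0161). Of the osteoclast markers, Acp5 had at most 3 reads, Calcr at most 1 and Oscar at most 11 in any library. Ctsk had 1412, 1471 and 1498 reads in control static against 1050, 992 and 1013 in DKO static libraries. It passed the adjusted p alone in static culture (-0.45) and did not pass under FFSS (-0.13).

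Mmp11, a furin-activated stromelysin, was at 21.1, 21.8 and 20.6 CPM in control static and 70.4, 65.9 and 63.7 CPM in DKO static libraries (1.66 ± 0.09, adjusted p = 4.03e-09). The 3 DKO libraries all lay above the control libraries. The membrane-type Mmp16 was at 2.64, 2.76 and 2.47 CPM against 6.76, 5.49 and 7.44 CPM (1.32 ± 0.19, adjusted p = 3.54e-05), and it did not reach the 2-fold limit under FFSS (0.67 ± 0.18). Mmp23, a type II membrane protein shed by furin cleavage, was at 4.65, 4.69 and 5.63 CPM against 11.5, 12.3 and 13.9 CPM (1.33 ± 0.12, adjusted p = 5.94e-07). In all 3 genes the control and DKO libraries were separate. Mmp28, also named epilysin, was lower in DKO cells, at 16.0, 14.9 and 15.8 CPM against 5.66, 5.21 and 5.55 CPM (-1.51 ± 0.15, adjusted p = 1.48e-06). Mmp28 shares 465 exon bases with a gene on the other strand, and Mmp19 shares 789 with another. Timp3 shares 1733 with Syn3 and Adamts9 shares 1381 with A730049H05Rik, also on the other strand. Over all libraries Syn3 had 81 assigned reads and A730049H05Rik had 15. The other partners had more, with 1473 for 1110012D08Rik beside 2732 of Mmp19, and 406 for 1700020L24Rik beside 2366 of Mmp28. The counts were made without regard to strand, so reads over those bases cannot be told apart between the genes. Mmp19 passed the adjusted p alone in both conditions (-0.52 and -0.76), Mmp17 passed it under FFSS (0.91), and Mmp15 was called lower under FFSS only (-1.08 ± 0.28, adjusted p = 0.00405, against -0.59 with adjusted p = 0.0819 in static culture). The FFSS call of Mmp15 was lost without control FFSS replicate 3 or DKO FFSS replicate 1. Whether the Mmp15 difference itself differs between static culture and FFSS did not pass the test (interaction -0.49, adjusted p = 0.466).

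In static culture the largest genotype differences of the tested genes in both directions were those of ADAMTS genes. Adamts18, an orphan ADAMTS, was at 40.5, 32.7 and 40.2 CPM in control static and at 1.04, 1.10 and 1.33 CPM in DKO static libraries. All DKO libraries were far below all control libraries, and its log2 fold change of -5.02 ± 0.55 (adjusted p = 3.59e-05) was the largest of the 33 genes. Under FFSS it was at 17.4, 4.25 and 5.10 CPM in control and 0.829, 0.773 and 0.895 CPM in DKO cells (-3.40 ± 0.64, adjusted p = 0.00126), and without control FFSS replicate 1 the value was -2.48. Adamts14, a procollagen N-proteinase that trims fibrillar collagen precursors, was at 4.86, 3.80 and 5.84 CPM in control static and 22.5, 26.8 and 25.6 CPM in DKO static libraries (2.37 ± 0.14, adjusted p = 7.87e-09). The groups were separate, also under FFSS (2.59 ± 0.14). The related Adamts2 was the more abundant of the 2 in every group per length, at 10.5 RPKM in control static and 7.68 in DKO static cells against 0.931 and 4.80 RPKM for Adamts14. Adamts2 passed the adjusted p alone, in the opposite direction (-0.45 ± 0.11, adjusted p = 0.0036).

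Adamts6 and Adamts10, a related pair that acts on fibrillin microfibrils, were both called higher in DKO cells. Adamts10 was at 26.2, 25.9 and 26.2 CPM in control static and 81.1, 79.6 and 92.2 CPM in DKO static libraries (1.69 ± 0.16, adjusted p = 2.92e-06). Adamts6 was at 2.33, 3.02 and 2.79 CPM against 7.64, 10.3 and 10.1 CPM (1.78 ± 0.16, adjusted p = 5.85e-07). Under FFSS both were called again, Adamts10 at 1.29 ± 0.16 and Adamts6 at 1.59 ± 0.16. Fbn1, which encodes the microfibril protein fibrillin-1, was among the genes called higher in DKO static cells (2.44 ± 0.29). Adamts17, the enzyme mutated in a Weill-Marchesani-like syndrome, was called higher under FFSS (1.60 ± 0.33, adjusted p = 0.000937, and 2.36 without control FFSS replicate 1), at 2.93, 1.12 and 0.743 CPM in control and 5.09, 4.70 and 4.64 CPM in DKO cells. Its static value was 0.67 ± 0.30 (adjusted p = 0.0751), and the interaction of 0.93 did not pass (adjusted p = 0.227).

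Of the 7 proteoglycan-cutting ADAMTS genes 5 were tested, and in static culture 2 were called lower (all genes, 7.3%) and 0 higher (all genes, 7.98%) in DKO cells. Adamts5, the main aggrecanase of mouse cartilage, was at 43.9, 42.1 and 43.0 CPM in control static and 18.1, 16.2 and 16.7 CPM in DKO static libraries (-1.34 ± 0.18, adjusted p = 7.58e-05). Adamts9, a versican-cutting enzyme, was at 125, 115 and 109 CPM against 48.4, 58.1 and 51.0 CPM (-1.15 ± 0.11, adjusted p = 8.44e-07). In both genes the groups were separate. Under FFSS 2 of the 5 were called lower (all genes, 8.96%) and 1 higher (all genes, 8.25%), and Adamts9 passed the adjusted p alone (-0.87 ± 0.11). Under FFSS the Adamts5 difference was -2.24 ± 0.19 (adjusted p = 1.15e-06), with 50.4, 87.3 and 90.1 CPM in control and 14.8, 15.7 and 17.8 CPM in DKO cells. Adamts1, another versican-cutting enzyme, passed the adjusted p alone in static culture (-0.68 ± 0.22) and was called under FFSS (-1.23 ± 0.23, adjusted p = 0.000934), at 49.1, 99.0 and 104 CPM in control and 36.4, 35.0 and 35.8 CPM in DKO cells. Adamts4, the other main aggrecanase, was at 32.1 to 37.8 CPM in control static and 34.8 to 40.3 CPM in DKO static libraries (0.13 ± 0.08, adjusted p = 0.204). The versican gene Vcan was higher in DKO static cells (3.25 ± 0.13). The aggrecan gene Acan did not pass (-0.26 ± 0.44, adjusted p = 0.653). The filtered Adamts20 had 0 reads in control static libraries against 3, 5 and 9 in DKO static libraries (adjusted p = 0.000701 in the fit without the filter), and 1, 2 and 1 against 8, 2 and 3 under FFSS (adjusted p = 0.0998).

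Adamts12, which cuts cartilage oligomeric matrix protein (COMP), was at 61.8, 49.8 and 55.9 CPM in control static and 20.7, 22.0 and 22.2 CPM in DKO static libraries (-1.37 ± 0.31, adjusted p = 0.00437). Under FFSS it did not pass (-0.59 ± 0.33, adjusted p = 0.152). Control FFSS replicate 1 at 43.3 CPM lay above the other FFSS controls at 15.6 and 19.3 CPM, and without it the value was -0.013. Adamts7, the other COMP-cutting enzyme, was low, at 1.43, 0.886 and 1.68 CPM against 2.25, 3.07 and 2.11 CPM in static culture. It shares 122 exon bases with Tbc1d2b on the other strand, a gene with 8507 assigned reads over all libraries against 386 of Adamts7. It passed the adjusted p alone in static culture (0.89 ± 0.26) and was called under FFSS (1.01 ± 0.27, adjusted p = 0.0053). That FFSS call lies at the 2-fold limit and was lost without control FFSS replicate 2 or 3 or DKO FFSS replicate 1 or 3 (0.91 to 0.99). Adamts16 was called lower under FFSS (-1.59 ± 0.60, adjusted p = 0.0342) on 4, 7 and 7 reads in control libraries against 2, 1 and 2 in DKO libraries, and this call was lost without control FFSS replicate 2 or 3 or any DKO FFSS replicate. Adamts15, a hyalectan-cutting enzyme, was called higher in DKO cells under FFSS (1.45 ± 0.41, adjusted p = 0.00785), at 1.03, 0.244 and 0.248 CPM in control and 1.66, 1.07 and 1.40 CPM in DKO cells. Without control FFSS replicate 1 this value was 2.46. In static culture it was at -0.53 ± 0.37 (adjusted p = 0.247).

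All 5 ADAMTS-like genes were tested, and in static culture 3 were called lower (all genes, 7.3%) and 0 higher (all genes, 7.98%) in DKO cells. The family sum was 43.9 ± 1.06 RPKM in control static and 20.9 ± 0.446 RPKM in DKO static cells (SD, n = 3). Adamtsl4, which binds fibrillin microfibrils, was at 71.8, 80.0 and 76.3 CPM in control static and 21.9, 22.0 and 20.9 CPM in DKO static libraries (-1.81 ± 0.16, adjusted p = 1e-06). Under FFSS the difference was -2.34 ± 0.16, with 70.2, 104 and 121 CPM in control and 18.9, 20.2 and 19.4 CPM in DKO cells. Adamtsl5 was at 53.2, 55.3 and 56.6 CPM against 25.5, 25.7 and 28.8 CPM in static culture (-1.04 ± 0.07, adjusted p = 4.02e-08), and passed the adjusted p alone under FFSS (-0.87 ± 0.07). Adamtsl2, a microfibril protein linked to TGF-beta signalling, was at 4.97, 4.38 and 5.42 CPM against 0.990, 1.21 and 1.11 CPM (-2.15 ± 0.51, adjusted p = 0.00361). In all 3 genes the static groups were separate. Under FFSS Adamtsl2 did not pass and the groups overlapped (-1.43 ± 0.62, adjusted p = 0.0719). The value was -0.24 without control FFSS replicate 1, and it was called without replicate 2 (-1.69) or replicate 3 (-1.87). In the fit of all libraries Adamtsl4 was the 1 ADAMTS-like gene of 5 called under FFSS (all genes, 17.2%). Adamtsl3 was within 55.7 to 70.8 CPM in the 6 static libraries and did not pass there (-0.23 ± 0.14), while under FFSS it passed the adjusted p alone (-0.62 ± 0.14).

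The 4 TIMPs differed from each other in direction. Timp2, the inhibitor that also assists pro-MMP2 activation by MMP14, was at 942, 960 and 962 CPM in control static and 1875, 1870 and 1838 CPM in DKO static libraries. It passed the adjusted p just below the 2-fold limit (0.96 ± 0.05, adjusted p = 4.44e-09) and stood at 0.90 ± 0.05 under FFSS. Timp3, which is held in the matrix and also blocks ADAMTS aggrecanases, was at 251, 240 and 232 CPM against 72.0, 72.1 and 69.4 CPM (-1.76 ± 0.30, adjusted p = 0.00073). Under FFSS it was at 237, 586 and 609 CPM in control and 107, 111 and 119 CPM in DKO cells (-2.09 ± 0.30, adjusted p = 0.000232). In both genes the control and DKO libraries were separate. Timp1, a secreted inhibitor, passed the adjusted p alone in opposite directions, at 0.28 ± 0.07 in static culture (192, 202 and 209 CPM against 253, 235 and 242 CPM) and -0.21 ± 0.07 under FFSS (321, 394 and 338 CPM against 297, 311 and 305 CPM). Timp4, the most restricted TIMP, had 8, 2 and 0 reads in control static libraries against 62, 57 and 43 in DKO static libraries, and 2, 0 and 1 against 48, 61 and 63 under FFSS. It was removed by the zero-count filter, and the fit without that filter gave adjusted p = 5.84e-08 and 2.88e-09. The sum of the TIMP genes was 501 ± 10.7 RPKM in control static and 763 ± 12.6 RPKM in DKO static cells, and that of the MMP genes 323 ± 3.60 and 394 ± 22.7 RPKM (SD, n = 3). The positions in mm9 are chrX:20447292-20451861 for Timp1, chr11:118162383-118217054 for Timp2, chr10:85763117-85812251 for Timp3 and chr6:115195634-115201867 for Timp4.

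**Figure D4:**
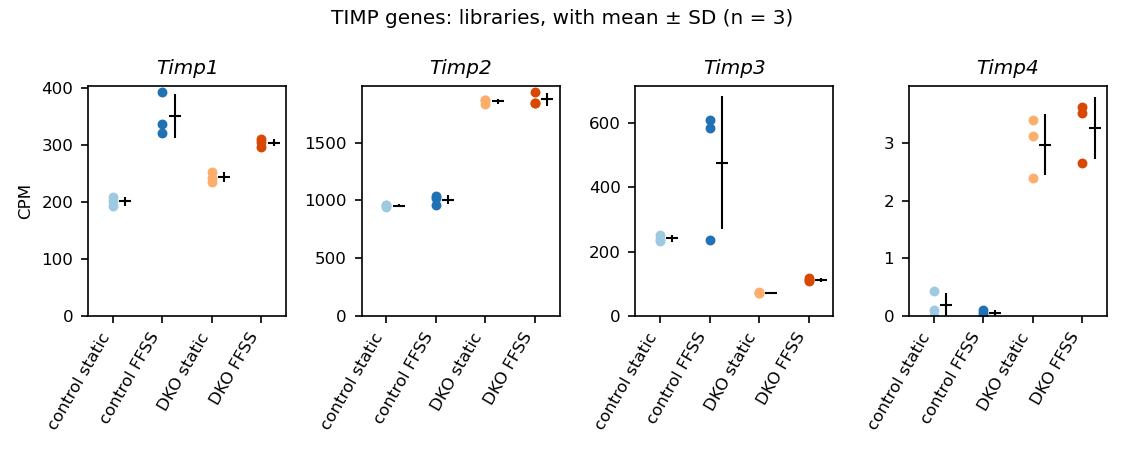
CPM of Timp1, Timp2, Timp3 and Timp4 in each library (points) with the group mean and SD beside them (n = 3), each panel on its own axis from 0. Timp2 and Timp4 are higher and Timp3 is lower in DKO cells, and the control FFSS library of Timp3 at 237 CPM lies among the static controls.

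FFSS lasted 3 h. In control cells 6 of the 33 tested genes (18.2%) were called, against 5.93% of all genes, with 1 higher (all genes, 3.96%) and 5 lower (all genes, 1.97%). The adjusted p alone was passed by 14, 5 up and 9 down (all genes, 35.8%). In DKO cells 1 gene (3.03%) was called, Adamtsl1, against 0.0872% of all genes (0.0134% higher, 0.0738% lower, and 0.872% on the adjusted p alone). The interaction, the FFSS effect in DKO minus that in control cells, was called for 1 gene, again Adamtsl1, against 0.651% of all genes (0.376% above 0, 0.275% below 0), and 2 passed the adjusted p alone (all genes, 3.97%). Each FFSS comparison shares its static libraries with the static genotype comparison.

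Adamtsl1, an ADAMTS-like matrix protein also named punctin (mm9, chr4:85699819-86074289), gave the largest response to FFSS. It was at 55.3, 49.6 and 47.2 CPM in control static and 8.12, 3.17 and 3.47 CPM in control FFSS libraries. All FFSS libraries lay far below the static ones, and the log2 fold change was -3.37 ± 0.27 (adjusted p = 1.8e-05). In DKO cells it was at 26.3, 22.3 and 29.1 CPM static and 10.1, 8.68 and 8.28 CPM under FFSS, also without overlap (-1.52 ± 0.26, adjusted p = 0.0289). The interaction was 1.85 ± 0.37 (adjusted p = 0.0254), so the fall was smaller in DKO than in control cells. The interaction call of Adamtsl1 was lost in the fit without a low-count filter (1.86), which called 1 other gene of the set instead. It was also lost in 9 of the 12 fits that left out 1 library (values from 1.61 to 2.41), and kept without control FFSS replicate 1, control FFSS replicate 2 or DKO static replicate 3. The DKO call was lost without any 1 of the static or DKO FFSS libraries (-1.62 to -1.43), with little change in size. DKO cells were below control cells in static culture (-0.97 ± 0.23) and above them under FFSS (0.88 ± 0.29), both past the adjusted p alone, and the latter was 1.44 and called without control FFSS replicate 1.

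The other 4 genes called lower with FFSS in control cells were enzymes of the ADAMTS group and 1 ADAMTS-like gene, and in each of them replicate 1 lay nearest to the static libraries. Adamts18 went from 40.5, 32.7 and 40.2 CPM to 17.4, 4.25 and 5.10 CPM (-2.09 ± 0.42, adjusted p = 0.00497). Adamtsl2 went from 4.97, 4.38 and 5.42 CPM to 3.85, 1.07 and 0.495 CPM (-1.45 ± 0.47, adjusted p = 0.0314). The sign of this value turned with the share of reads outside annotated genes in the model. That share was higher in every FFSS than in every static library of control cells, so this model cannot separate it from FFSS. Adamts15 went from 1.32, 1.41 and 1.42 CPM to 1.03, 0.244 and 0.248 CPM (-1.45 ± 0.41, adjusted p = 0.0143). Adamts12 went from 61.8, 49.8 and 55.9 CPM to 43.3, 15.6 and 19.3 CPM (-1.10 ± 0.31, adjusted p = 0.0219). In all 4 genes the static and FFSS libraries did not overlap, as in 13 of the 33 tested genes. The 4 were called on these same libraries, and the share of all genes without overlap was not counted. The calls were lost without FFSS replicate 2 or replicate 3 for Adamts15 (-1.12 and -1.13), Adamtsl2 (-1.19 and -1.01) and Adamts12 (-0.84 and -0.93), and without a static replicate for Adamtsl2 (1, 2 or 3) and Adamts12 (1 or 3). The call of Adamts18 held in all 12 such fits. The gene called higher, Adamts16, had 1, 1 and 3 reads in static and 4, 7 and 7 in FFSS libraries (1.70 ± 0.59, adjusted p = 0.0386), its value was 2.37 without static replicate 3, and its call was lost when any of 6 libraries was left out. In DKO cells these 5 genes had FFSS values of -0.47, -0.73, 0.53, -0.33 and 0.71 in the order named, and none of them passed the adjusted p there. Their interaction terms did not pass either, with adjusted p of 0.0655 for Adamts15 and 0.325 or more for the other 4.

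TIMP transcripts were among those that passed the adjusted p alone in control cells. Timp1 rose from 192, 202 and 209 CPM to 321, 394 and 338 CPM, with no overlap (0.80 ± 0.07, adjusted p = 6.54e-06). In DKO cells it went from 253, 235 and 242 CPM to 297, 311 and 305 CPM (0.32 ± 0.07, adjusted p = 0.0507). The interaction of -0.48 ± 0.10 (adjusted p = 0.0193) passed the adjusted p without reaching the 2-fold limit. Timp3 was at 251, 240 and 232 CPM in static and 237, 586 and 609 CPM in FFSS libraries (0.99 ± 0.28, adjusted p = 0.0256), so that replicate 1 stayed within the static range and the other 2 libraries lay above it. The sign of the Timp3 value turned with the share of reads outside annotated genes in the model. In DKO cells Timp3 was at 72.0, 72.1 and 69.4 CPM and 107, 111 and 119 CPM (0.66 ± 0.29, adjusted p = 0.374). Timp2 changed by 0.08 ± 0.05 in control and 0.01 ± 0.05 in DKO cells. Among the enzymes, Adamts5 (0.82 ± 0.17) and Adamts4 (0.24 ± 0.08) were higher and Adamts17 (-0.94 ± 0.34), Mmp17 (-0.64 ± 0.18), Adamts9 (-0.51 ± 0.11) and Mmp2 (-0.26 ± 0.09) lower in control cells on the adjusted p alone. The values of Adamts17 and Mmp2 also turned sign in the model with that share. Mmp13 was at 48.9, 53.5 and 51.0 CPM in static and 54.2, 42.5 and 57.4 CPM in FFSS libraries of control cells (0.01 ± 0.13), with overlapping groups. Mmp14 was at -0.22 ± 0.10 (adjusted p = 0.103) and Mmp9 at 0.17 ± 0.24. Without control FFSS replicate 1 these values were -0.41 for Mmp2 and -0.38 for Mmp14, both past the adjusted p alone, -0.03 for Mmp13 and 0.40 for Mmp9 (adjusted p = 0.0816). The ratio of summed TIMP to summed MMP RPKM was 1.53 to 1.58 in control static and 1.96 to 3.18 in control FFSS libraries, and 1.82 to 2.04 and 1.97 to 2.13 in DKO cells.

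**Figure D5:**
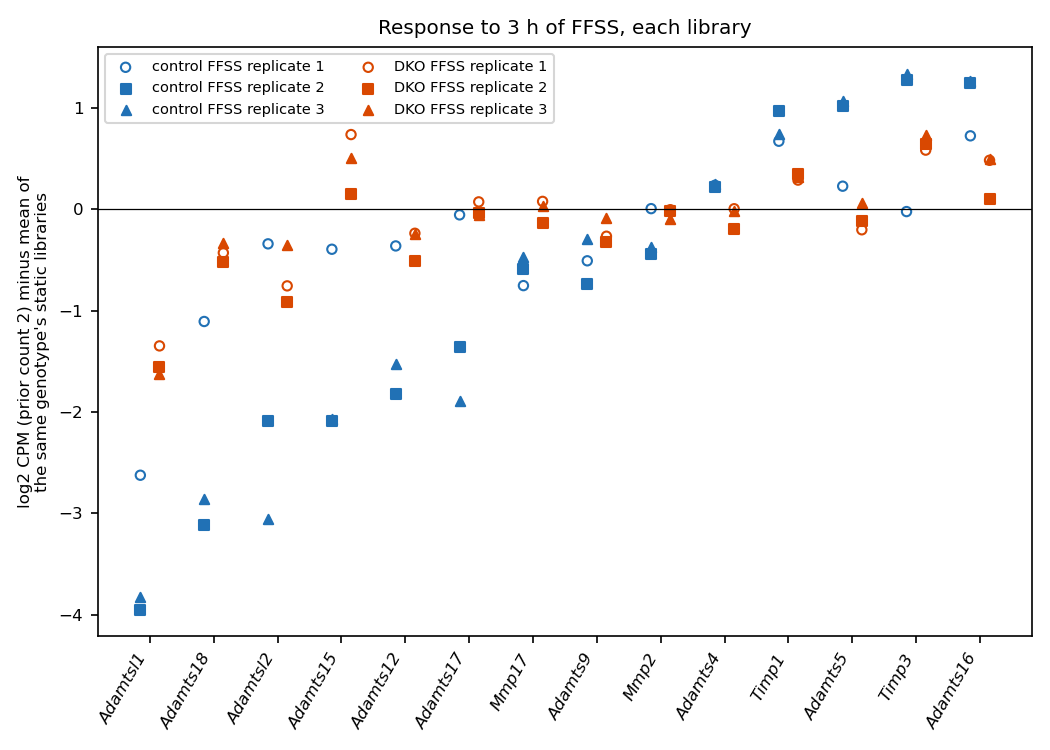
Response to FFSS of each library for the 14 genes past the adjusted p in control cells, as log2 CPM (prior count of 2 reads) minus the mean of the same genotype's static libraries, with open circles for replicate 1. Control FFSS replicates 2 and 3 lie far from 0, while replicate 1 and the DKO libraries lie nearer to 0 for most genes.

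Library by library, the median absolute response of these 14 genes, which were chosen on the same libraries, was 0.38 in control FFSS replicate 1 and 1.27 and 1.30 in replicates 2 and 3. It was 0.25 to 0.28 in the 3 DKO FFSS libraries. Replicate 1 was the control FFSS library closest to the static mean in 11 of the 14 genes. The share of reads outside annotated genes moved alongside, at 5.10% to 5.21% in control static libraries, 5.87% in control FFSS replicate 1, 9.19% and 10.04% in replicates 2 and 3, 7.07% to 7.14% in DKO static and 7.93% to 8.55% in DKO FFSS libraries. The osteoblast markers also spread, from 6456 to 19838 CPM in sum over the control FFSS libraries, and their part in the result was not tested. With the share of reads outside annotated genes in the model, 1 of the 6 calls in control cells was kept, that of Adamtsl1, while 1.33% of all genes were called against 5.93% before. Every control FFSS library had a higher share than every control static library. The model therefore cannot separate the share from FFSS, and the lost calls do not show which of the 2 the responses go with. Leaving out control FFSS replicate 1 leaves only replicates 2 and 3 in that group, and removes the library closest to static for most of these 14 genes. Larger values and smaller SEs after that choice are therefore no independent support. Without control FFSS replicate 1, 9 genes were called in control cells against 11.3% of all genes. They were the 6 above, with Adamtsl1 at -3.93, Adamts18 at -3.01, Adamtsl2 at -2.64, Adamts15 at -2.46, Adamts12 at -1.68 and Adamts16 at 1.90, together with Timp3 (1.31 ± 0.05), Adamts5 (1.04 ± 0.06) and Adamts17 (-1.70 ± 0.24). Without the same library 7 interaction terms were called, against 7.6% of all genes, namely those of Adamtsl1 (2.41), Adamts15 (2.99), Adamts18 (2.54), Adamtsl2 (1.91), Adamts17 (1.69), Adamts12 (1.35) and Adamts5 (-1.12).

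Genes that act with or on these enzymes were examined from 3 further lists. Of 18 activators, other inhibitors and co-receptors 13 were tested, and in static culture 3 were called higher (all genes, 7.98%) and 0 lower (all genes, 7.3%) in DKO cells. These included Serpine2 (4.02 ± 0.50), an inhibitor of serine proteases, and Cst3 (1.63 ± 0.10), the cysteine protease inhibitor cystatin C. Under FFSS 3 were called higher (all genes, 8.25%), and the urokinase receptor gene Plaur was called lower (-1.34 ± 0.12; all genes, 8.96%). Of 20 other matrix proteases and their helpers 17 were tested, and in static culture, against the same shares of all genes, 3 were called higher and 5 lower in DKO cells. The higher ones were Phex (4.87 ± 0.73), Adam12 (1.88 ± 0.30) and Pcolce2 (1.10 ± 0.29), and the lower ones Tll1 (-3.61 ± 0.31), Mme (-2.67 ± 0.12), Adam19 (-2.23 ± 0.20), Fap (-1.91 ± 0.31) and Htra3 (-1.64 ± 0.25). Phex is also among the osteocyte markers above. FFSS in control cells, where 5.93% of all genes were called, was called for 0 of the first list. It was called for Adam8 (1.32 ± 0.34), Tll1 (1.18 ± 0.18) and Adam19 (-1.01 ± 0.18) of the second. The adjusted p alone, passed by 35.8% of all genes, was passed by 4 up and 3 down in the first list. In the second list it was passed by 2 up and 5 down, the called genes included.

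Of 12 ADAMTS substrates 9 were tested, and in static culture, where 7.98% of all genes were called higher and 7.3% lower, 3 were called higher in DKO cells, Vcan (3.25 ± 0.13), Fbn1 (2.44 ± 0.29) and Comp (1.30 ± 0.29), while the small proteoglycan gene Dcn was lower (-1.28 ± 0.21). Under FFSS 4 were called higher in DKO cells (all genes, 8.25%) and 0 lower (all genes, 8.96%). Fbn1 was also higher with FFSS in control cells (1.46 ± 0.30). Comp was higher in the same static comparison in which Adamts12 was lower, and its other protease Adamts7 passed the adjusted p alone in the upward direction. The median log2 fold change in static culture was 0.52 over the 13 tested genes of the first list, 0.19 over the 17 of the second and 0.65 over the 9 substrates, beside 0.01 over all genes and -0.45 over the 33 protease and inhibitor genes.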

How the data were processed

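The 12 deposited tables hold raw counts of reads per Ensembl gene, which the authors made with STAR alignment to mm9 and HTSeq counting (aligner version not given in the sources used here). The deposited files are named as not stranded. HTSeq's summary lines, 22.5% to 25.9% of all records, were left out of library sizes. Symbols, exon lengths and coordinates came from GENCODE M1 (98.9% of IDs matched). Groups came from the sample labels. The main test was edgeR's (4.0.16, R 4.3.3) robust quasi-likelihood fit with TMM over all libraries as 4 groups, removing genes with 0 counts in 2 or more libraries, as the study's methods state, with adjustment by Benjamini-Hochberg. Fold changes are log2, and SE is the fold change divided by the root of F. RPKM is CPM per kilobase of merged exons. Expressed meant 1 CPM in all 3 libraries of a group. The procedure was tested on simulated data, and no result of that test is reported here. Alternatives were RLE size factors, library totals alone, other filters and thresholds, DESeq2 (1.42.0), limma-voom (limma 3.58.1), the 6 libraries of a comparison, a replicate block, the share of reads outside genes, and leaving out each library. Limits of 3 reads cover counting error only. Promoters came from RefSeq (36 of 51 genes matched). Full values were given by rule for each gene called in a comparison, the TIMPs, Mmp2, Mmp9, Mmp13, Mmp14 and filtered genes with a mean of at least 10 reads in a group; other genes were named after their values were seen. The genes and lists were chosen with earlier results of these data known. The values of 1 gene of the lists of related genes are not reported here.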

Additional observations from a re-analysis of the deposited data

Results flagged for a closer look

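The response to FFSS differed between DKO and control cells for 2 genes by the interaction test of edgeR. For Adamtsl1 the effect in DKO minus that in control cells was 1.85 on the log2 scale (adjusted p = 0.0254), with a fall in 3 of 3 FFSS libraries of both genotypes. This call was lost in 10 of 20 alternatives that kept both thresholds, among them 9 of the 12 fits that left out 1 library. It was also lost at an adjusted p under 0.01. Without control FFSS replicate 1 there were 7 interaction calls in place of 1, against 7.6% and 0.651% of all genes. For Timp1 the effect in DKO minus that in control cells was -0.48 (adjusted p = 0.0193). All 3 FFSS libraries lay above all 3 static libraries in both genotypes.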

How the results depend on the processing

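Shares in brackets are those of all genes called in the same fit. The count of genes called between DKO and control cells stayed at 17 to 23 in static culture (10.8% to 16.9%; main 17) and at 15 to 21 under FFSS (12.2% to 20.1%; main 18), except 24 (54.2%) and 29 (56.6%) with no fold limit. FFSS in control cells (main 6, 5.93%) gave 2 with the 6 libraries of the comparison (3.04%), 14 with no fold limit (35.8%), 2 at an adjusted p under 0.01 (2.96%), 1 with the share of reads outside genes in the model (1.33%) and 2 to 9 when leaving out 1 library (3.33% to 11.3%). FFSS in DKO cells (main 1, 0.0872%) gave 0 without a filter (0.0616%), 0 at an adjusted p under 0.01 (0.0671%), 2 with that share (0.335%) and 0 to 1 when leaving out 1 library (0.0537% to 0.255%). The interaction (main 1, 0.651%) gave 2 by limma-voom (0.819%), 2 with no fold limit (3.97%), 0 at an adjusted p under 0.01 (0.228%) and 0 to 7 when leaving out 1 library (0.275% to 7.6%). The count of expressed genes was 25 at 1 RPKM, 31 at 2 CPM and 35 at 0.5 CPM, against 33. The cause of these changes was not tested.

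In both genotypes the share of reads outside genes was higher in every FFSS than in every static library. A model with that share cannot separate it from FFSS. Some values turned sign. For FFSS in control cells with the share of reads outside genes in the model these were Adamtsl2 (0.11), Timp3 (-0.24), Adamts17 (0.26), Mmp2 (0.071), Mmp9 (-0.58) and Mmp14 (0.10), and also Mmp2 for FFSS in DKO cells (0.078), Mmp14 for static genotype (0.019), and the interactions of Timp3 (0.52) and Mmp9 (0.20). Mmp13 for FFSS in control cells was -0.0061 with RLE, -0.0053 without a filter, -0.0060 by DESeq2 and -0.0062 by limma-voom. With library totals alone Mmp2 was -0.059 in static culture and Mmp14 -0.13 under FFSS. Leaving out 1 library moved Mmp13 from -0.082 to 0.13 for FFSS in control cells, Mmp14 from -0.016 to 0.067 and Timp2 from -0.013 to 0.0255 for FFSS in DKO cells, and Mmp14 from -0.059 to 0.22 between genotypes under FFSS.

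The replicate block gave 5, 1, 1, 17 and 18 called genes for the FFSS effect in control cells, that in DKO cells, the interaction and the genotype effect in static culture and under FFSS, with 5.92%, 0.0939%, 0.564%, 15.2% and 17.1% of all genes called. After each group's mean log2 CPM was subtracted, same-numbered libraries of different groups correlated at 0.0023 on average. Differently numbered ones correlated at -0.0012, and 4 of 12 libraries correlated best with their own number. These correlations of residuals gave no sign of pairing by number and cannot exclude it. Adamts16 lost its call for FFSS in control cells under the block.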
